A study of Mus musculus with 6 samples.

Results

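The enzymes of glycolysis and of the pentose phosphate pathway, with the transporters and control enzymes that feed and drain them, form a list of 40 mouse genes. The rule that names them uses no measured value, but the list was drawn up with earlier results of these data known. All 40 were found in the table of 55487 genes from RNA-seq of bone marrow cells, and all 40 were among the 15020 genes tested, those averaging 10 or more normalized counts over the 6 libraries. The cells came from recipient mice that carried MLL-AF9 leukemia, a myeloid leukemia driven by a fusion of the Mll and Af9 genes. Recipients, 6 weeks old by the study's methods and CD45.1(+) CD45.2(-), were irradiated and each received 1000 leukemic marrow cells. The donor cells of both groups were CD45.2(+) C57BL/6 cells with Mx1-Cre, both Brd9 alleles floxed and the fusion (MA9), so the controls carried the floxed alleles and the Cre too. From the day after transplantation, recipients were given 3 injections of either PBS or 20 mg/kg pIpC, a synthetic double-stranded RNA, on alternate days, and each group has 3 libraries. Marrow of the femora and tibiae was taken 10 days after injection, and GFP+ cells were named as the source by the labels and c-Kit+ cells by the study's methods. The comparison asks how the loss of Brd9, a bromodomain subunit of a chromatin remodelling complex, changed gene expression in transplanted leukemic cells. The Mx1 promoter that drives Cre answers to interferon, and pIpC itself induces interferon, so the effect of pIpC on expression and that of Brd9 deletion cannot be told apart between these groups. Irradiation was lethal, in 2 fractions of 450 cGy, by the labels and sublethal, at 450 cGy, by the study's methods, so how much host marrow remained is not known here. The labels do not say that the libraries of a group came from separate mice, so p-values measure only the spread between these samples.

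Glycolysis splits glucose into pyruvate, yielding ATP and NADH in the cytosol. Glucose enters through facilitative transporters, is trapped as glucose-6-phosphate by hexokinases, and is committed to breakdown by phosphofructokinase, whose strongest activator, fructose-2,6-bisphosphate, is made and removed by the PFKFB enzymes. Pyruvate is reduced to lactate, which leaves through monocarboxylate transporters, or enters mitochondria through the pyruvate carrier, where the pyruvate dehydrogenase kinases restrain its oxidation. Glucose-6-phosphate can instead enter the oxidative pentose phosphate branch, which makes NADPH, and the non-oxidative branch links pentose sugars back to glycolysis. Neutrophils are known for heavy use of glycolysis and for using NADPH in the respiratory burst. Many steps are served by several isoenzymes, encoded by separate genes, whose proportions differ between cell types.

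The libraries held 19277439 to 23586722 reads on genes, and the 10 most abundant genes took 5.55 to 5.85% of reads in the PBS libraries and 11.64 to 11.97% in those labelled pIpC. Brd9, counted over all its exons and not only over the deleted exons 4 to 6, had 1926.8, 1946.4 and 1631.9 normalized counts in the PBS libraries and 2036.0, 2263.0 and 2011.4 in the libraries labelled pIpC (log2 fold change 0.20, SE 0.13, adjusted p = 0.26, exact permutation p = 0.10, 2-sided). Brd9 was thus not lower at the level of the gene, and the groups are named here by their labels. Summed levels of 12 neutrophil markers ranged from 20469 to 46882 normalized counts in PBS and from 2048253 to 2116115 in the libraries labelled pIpC, or 8.97 to 9.12% of all normalized counts there, and all 12 rose. Summed erythroid markers went from 21.6 to 44.1 up to 5902 to 8103, with all 14 in the table higher and Slc4a1, Rhag and Trim10 among those at 0 in every PBS library. Summed B cell markers were 206 to 363 against 1999 to 3425 (15 of 15 higher, Ms4a1 at 0 in PBS), and T and NK cell markers 194 to 325 against 4040 to 4641 (8 of 8 tested higher), most of it Nkg7, at 161.8 to 301.0 and 3701.6 to 4311.6. Summed macrophage markers were 10341 to 14630 against 6427 to 8280, with 7 of 9 tested higher and 2, Adgre1 and Vcam1, lower, and Marco at 0 in PBS. Skeletal muscle markers, fixed because several members have muscle isoforms, were 105 to 196 against 120 to 175, with none of 3 tested past the threshold (limma, 0 at an unadjusted p under 0.05) and Mb and Myh4 at 0 in PBS. The leukemia genes Hoxa9, Hoxa10 and Meis1 summed to 10125 to 10484 in PBS and to 470 to 527 in the libraries labelled pIpC, and all 3 fell. The part of these shifts in the results on the members was not tested, and in bulk RNA a change in the number of cells of a type cannot be told apart from a change in RNA per cell. PBS_3 stood apart from the other PBS libraries: across 15005 genes its deviation from them fell with transcript length (Spearman rho = -0.49, a description across genes that share that library). A member's value without it is given where it changes the call or moves the log2 fold change by over 1.5 times.

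Of the 40 members, 17 passed an adjusted p of 0.1 (limma, Benjamini-Hochberg over all 15020 genes), where 45.3% of all genes tested did. The share of members, 42.5%, was near that background. By direction, 13 members rose (32.5%, against 25.0% of all genes tested) and 4 fell (10.0%, against 20.4%). With a change of at least 1.5-fold as well, 12 rose, against 21.5% of genes tested, and 2 fell, against 17.0%. The groups did not overlap for 25 members (62.5%), beside 56.8% of all genes tested. The median log2 fold change was 0.21 over the members and 0.02 over all genes tested, and 29 members lay above 0 and 11 below.

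Without PBS_3, 31 members passed (77.5%, against 65.1% of all genes tested), 25 higher (against 34.5%) and 6 lower (against 30.6%). All 17 calls of the full comparison were among them in the same direction. Members called lower numbered 2 without PBS_1 (19.9% of all genes tested) or pIpC_3 (12.7%), and 1 without pIpC_1 (14.0%), pIpC_2 (12.4%) or with the replicate number as a block (18.0%). The median over members without PBS_3 was 0.32, beside 0.01 over all genes tested. PBS_3 was the highest PBS library for 27 members and the lowest for 10, and reached at least 1.5 times the mean of PBS_1 and PBS_2 for 12 members. The coefficient of variation of a member had a median of 22.01% in PBS and 5.06% in the libraries labelled pIpC, beside 27.6% and 9.33% over all genes tested. All members together took 1.19, 1.28 and 1.40% of the normalized counts of PBS_1, PBS_2 and PBS_3, and 1.39, 1.42 and 1.42% in the libraries labelled pIpC. PBS_3 lay within the range of the libraries labelled pIpC, and the other PBS libraries lay below it.

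**Figure D1:**
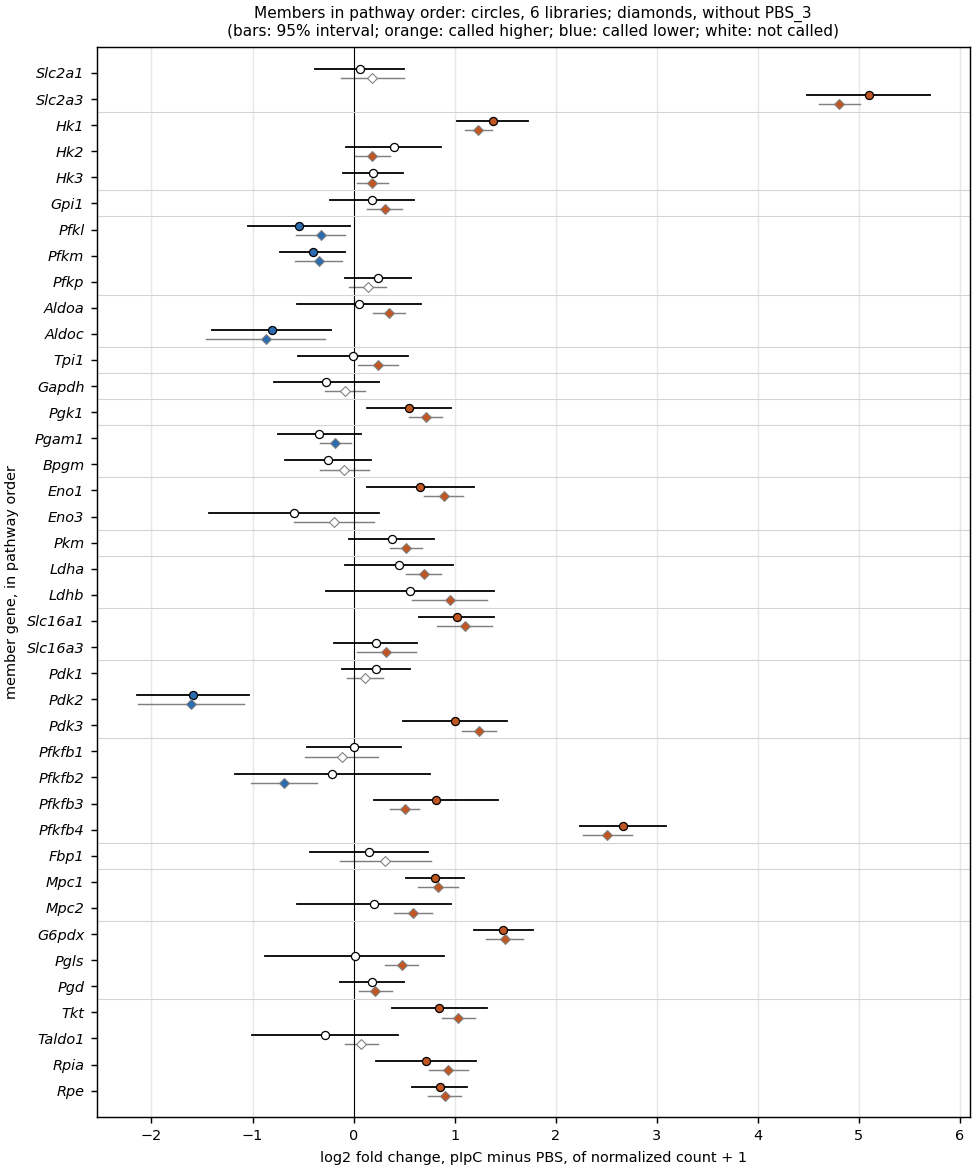
Log2 fold change (libraries labelled pIpC minus PBS, of normalized count + 1) of the 40 members in pathway order, with all 6 libraries (circles) and without PBS_3 (diamonds); bars are 95% intervals, orange marks higher, blue lower and white not past an adjusted p of 0.1. Slc2a3 at 5.09 and Pfkfb4 at 2.66 lie far to the right, Pdk2 at -1.59 farthest to the left, and the intervals narrow for most members when PBS_3 is left out.

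**Figure D2:**
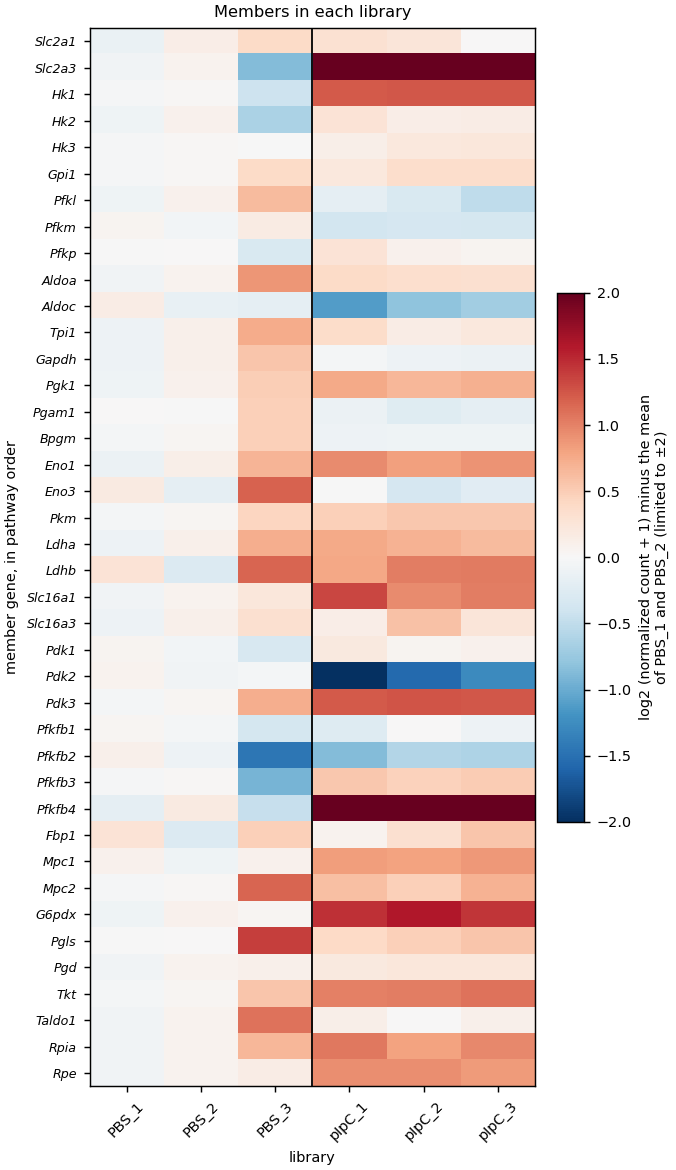
Each member in each library as log2 (normalized count + 1) minus the mean of PBS_1 and PBS_2, with colours limited to differences of 2 either way. The PBS_3 column departs from the other PBS columns at many members, with Pgls, Mpc2, Eno3 and Ldhb high and Pfkfb2, Pfkfb3 and Slc2a3 low, whereas the columns labelled pIpC resemble each other.

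The facilitative glucose transporters differed from each other. Slc2a3 (GLUT3, a transporter with high affinity for glucose; GRCm38 chr6:122727809-122801640) had 225.8, 249.0 and 129.0 normalized counts in PBS_1, PBS_2 and PBS_3 and 6061.2, 7218.2 and 6713.9 in pIpC_1, pIpC_2 and pIpC_3. Every library labelled pIpC lay far above every PBS library, and PBS_3 was the lowest of all. The means stood 33.1-fold apart, and the log2 fold change was 5.09 (SE 0.26, adjusted p = 3.1e-05), the largest of the 40 and the 388th of the 15020 genes tested. Slc2a1 (GLUT1, the widely expressed basal transporter) had 268.2, 320.9 and 381.4 normalized counts in PBS and 362.3, 348.4 and 294.9 in the libraries labelled pIpC. The groups overlapped, with a log2 fold change of 0.06 (95% interval -0.38 to 0.50, adjusted p = 0.82), or 0.19 without PBS_3 (adjusted p = 0.27). Within each library, the log2 ratio of Slc2a3 to Slc2a1 was -0.25, -0.36 and -1.56 in PBS and 4.06, 4.37 and 4.50 in those labelled pIpC.

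Among the hexokinases, Hk1 (the broadly expressed form that binds mitochondria; chr10:62268855-62379908) had 2036.7, 2083.1 and 1537.9 normalized counts in PBS against 4803.7, 4876.5 and 4858.2. The groups were well apart and the libraries labelled pIpC lay close together. Hk1 was 2.57-fold higher by the means, with a log2 fold change of 1.37 (SE 0.15, adjusted p = 5.5e-04). Hk3, the form typical of myeloid cells, had 14208, 14606 and 14286 normalized counts in PBS and 15678, 16672 and 16784 in the libraries labelled pIpC. The groups did not overlap, yet the log2 fold change of 0.19 did not pass (adjusted p = 0.28). Without PBS_3 it was 0.18 and passed (adjusted p = 0.040). Hk2, the insulin-responsive form, had a log2 fold change of 0.40 (adjusted p = 0.16), which passed without PBS_3 (0.19, adjusted p = 0.067) and without PBS_2 (0.55, adjusted p = 0.090). Gpi1, which turns glucose-6-phosphate into fructose-6-phosphate, overlapped between groups and had a log2 fold change of 0.18 (adjusted p = 0.45), or 0.31 without PBS_3 (adjusted p = 0.0082).

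Both members of the phosphofructokinase family that passed were lower. Pfkl, the liver-type subunit and the main one in many blood cells, had 1418.9, 1605.3 and 2352.7 normalized counts in PBS and 1337.4, 1226.0 and 1063.7 in the libraries labelled pIpC. PBS_3 was far above the rest, and the gap between PBS_1 and pIpC_1 was small. The log2 fold change was -0.54 (SE 0.21, adjusted p = 0.089), and the call was lost without PBS_2 (adjusted p = 0.125), pIpC_1 (0.14), pIpC_2 (0.20) or pIpC_3 (0.26). Without PBS_3 it was -0.33 and passed (adjusted p = 0.026). Pfkm, the muscle-type subunit, had 443.0, 409.9 and 479.8 normalized counts in PBS and 331.4, 338.2 and 334.6 in the libraries labelled pIpC, again without overlap. It fell by 0.40 on the log2 scale (SE 0.13, adjusted p = 0.056), a call lost without PBS_1 (adjusted p = 0.11), pIpC_1 (0.15), pIpC_2 (0.16) or pIpC_3 (0.17). With the replicate number as a block, neither Pfkl (adjusted p = 0.14) nor Pfkm (0.15) passed. Pfkp, the platelet-type subunit, had a log2 fold change of 0.24 (adjusted p = 0.22) and did not pass without PBS_3 either (0.14, adjusted p = 0.17).

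The PFKFB enzymes, which set the level of the phosphofructokinase activator fructose-2,6-bisphosphate, held the second largest change. Pfkfb4 (chr9:108991778-109032228) had 491.4, 636.7 and 406.3 normalized counts in PBS and 3038.1, 3277.6 and 3259.7 in the libraries labelled pIpC. Each of the latter exceeded every PBS library several times over. It was 6.24-fold higher by the means, with a log2 fold change of 2.66 (SE 0.18, adjusted p = 8.2e-05). Pfkfb3, an inducible form that favours synthesis of the activator, had 2248.7, 2324.0 and 1200.7 normalized counts in PBS and 3338.5, 3158.0 and 3242.3 in the libraries labelled pIpC. PBS_3 was the lowest by a wide margin, and the log2 fold change was 0.81 (SE 0.26, adjusted p = 0.048) with it and 0.51 (adjusted p = 1.3e-04) without it. Leaving out any library labelled pIpC ended that call (pIpC_1, adjusted p = 0.14; pIpC_2, 0.13; pIpC_3, 0.13). Pfkfb2, known as the heart form, had 324.5, 284.4 and 110.9 normalized counts in PBS and 165.7, 202.3 and 197.3 in the libraries labelled pIpC. PBS_3 lay below all of these and the other PBS libraries above them, so that the log2 fold change of -0.21 (adjusted p = 0.71) became -0.69 without PBS_3 (adjusted p = 0.0031). Pfkfb1, known from liver, overlapped between groups (log2 fold change 0.00, 95% interval -0.47 to 0.47, adjusted p = 0.996), or -0.12 without PBS_3 (adjusted p = 0.55). Fbp1, the gluconeogenic enzyme that opposes phosphofructokinase, overlapped too (log2 fold change 0.15, adjusted p = 0.65, or 0.31 without PBS_3, adjusted p = 0.20).

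In the later steps of glycolysis, from aldolase to lactate dehydrogenase, Pgk1 and Eno1 rose and Aldoc fell. Pgk1 (phosphoglycerate kinase, the first step that yields ATP) had 6077.2, 6838.4 and 9073.7 normalized counts in PBS against 10953, 10263 and 10534. Eno1, the ubiquitous enolase, had 10831, 12666 and 18808 against 22477, 20785 and 21850. For both genes PBS_3 was the highest PBS library but still below every library labelled pIpC. The log2 fold change was 0.55 for Pgk1 (SE 0.17, adjusted p = 0.047) and 0.66 for Eno1 (SE 0.22, adjusted p = 0.058). Without PBS_3 they were 0.71 (adjusted p = 4.2e-05) and 0.89 (adjusted p = 2.7e-05), while leaving out any other library ended both calls (adjusted p = 0.12 to 0.14 for Pgk1 and 0.14 to 0.16 for Eno1). Annotated copies of Pgk1 and Eno1 had separate counts equal to 1.05 to 1.76% and 1.19 to 3.01% of the count of the member. How many reads were misassigned between copy and member is not known here.

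Aldoc, an aldolase best known from brain, was the member with the lowest counts, at 75.3, 61.7 and 60 normalized counts in PBS and 30.9, 38.8 and 41.6 in the libraries labelled pIpC. The groups were apart, and the log2 fold change was -0.81 (SE 0.25, adjusted p = 0.042). That call was lost with the replicate number as a block (adjusted p = 0.11) and without PBS_1 (0.11), pIpC_1 (0.13) or pIpC_2 (0.12). The abundant aldolase Aldoa had 10390, 11429 and 20075 normalized counts in PBS and 13649 to 14241 in the libraries labelled pIpC. PBS_3 lay above and the other PBS libraries below these, with a log2 fold change of 0.05 (adjusted p = 0.88) that became 0.35 without PBS_3 (adjusted p = 0.0023).

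Like Aldoa, several other glycolytic genes did not pass in the full comparison but passed without PBS_3. Ldha, which reduces pyruvate to lactate, had 6435.4, 7340.4 and 11411 normalized counts in PBS and 11600, 11137 and 10655 in the libraries labelled pIpC. PBS_3 reached their range and the other PBS libraries did not. The log2 fold change was 0.45 (adjusted p = 0.16), and 0.69 without PBS_3 (adjusted p = 7.2e-05). Pkm, the pyruvate kinase of most adult tissues, had 22823, 23902 and 31322 against 32472, 33919 and 33904, without overlap. Its log2 fold change was 0.38 (adjusted p = 0.14), and 0.52 without PBS_3 (adjusted p = 2.7e-04). Ldhb, the heart-type lactate dehydrogenase, and Tpi1, triose-phosphate isomerase, did not pass with all libraries (adjusted p = 0.25 and 0.99) but did without PBS_3 (0.95, adjusted p = 9.6e-04, and 0.24, adjusted p = 0.041). With all 6 libraries, Ldha (adjusted p = 0.0033), Pkm (0.0088), Ldhb (0.016) and Aldoa (0.084) also passed as higher once the trend with transcript length was removed.

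Gapdh, often taken as a reference gene, had 44278, 50955 and 69467 normalized counts in PBS and 46018, 44286 and 43950 in the libraries labelled pIpC. The groups overlapped and PBS_3 was the highest, with a log2 fold change of -0.27 (95% interval -0.78 to 0.25, adjusted p = 0.37), or -0.09 without PBS_3 (adjusted p = 0.43). Annotated Gapdh pseudogenes had counts of their own, equal to 6.70 to 10.9% of the Gapdh count and not included in it. Pgam1, phosphoglycerate mutase, had a log2 fold change of -0.34 (adjusted p = 0.17), and passed as lower without PBS_3 (-0.18, adjusted p = 0.043) and under quantile normalization (-0.27, adjusted p = 0.066). The separate counts of its annotated copies equalled 7.37 to 13.9% of the Pgam1 count. Bpgm, the mutase of red cells that makes 2,3-bisphosphoglycerate, had a log2 fold change of -0.25 (adjusted p = 0.31), or -0.09 without PBS_3 (adjusted p = 0.48), beside the rise in summed erythroid markers. Eno3, the muscle enolase, had 212.0, 164.0 and 423.2 normalized counts in PBS and 184.6, 147.1 and 158.6 in the libraries labelled pIpC. The groups overlapped, and the log2 fold change of -0.59 did not pass (adjusted p = 0.23), nor did that of -0.20 without PBS_3 (adjusted p = 0.36).

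The members that handle lactate and pyruvate moved in both directions. Slc16a1 (MCT1, which carries lactate and pyruvate with a proton; chr3:104638668-104658462) had 603.1, 667.0 and 744.6 normalized counts in PBS and 1596.9, 1216.8 and 1292.9 in the libraries labelled pIpC. All of the latter were above all PBS libraries, with pIpC_1 the highest. The rise was 2.04-fold by the means (log2 fold change 1.02, SE 0.16, adjusted p = 0.0025). Slc16a3 (MCT4, known as a lactate exporter of glycolytic cells) overlapped between groups, at 1729.6, 1983.9 and 2302.9 against 2036.0, 2788.2 and 2191.2. Its log2 fold change was 0.22 (adjusted p = 0.36), or 0.32 without PBS_3 (adjusted p = 0.058).

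Mpc1, a subunit of the mitochondrial pyruvate carrier, had 535.6, 476.7 and 536.4 normalized counts in PBS and 902.2, 879.7 and 921.5 in the libraries labelled pIpC. Both groups were tight and apart, with a log2 fold change of 0.80 (SE 0.12, adjusted p = 0.0024). An opposite-strand transcript shares 23.1% of the exon bases of Mpc1 and had a mean count of 13.6 in PBS and 48.5 in the libraries labelled pIpC. The part of this overlap in the counts of Mpc1 was not tested. Mpc2, the partner subunit, had 999.3, 1023.3 and 2274.6 normalized counts in PBS and 1528.0, 1406.9 and 1632.3 in the libraries labelled pIpC. PBS_3 was the highest of all 6, and the log2 fold change of 0.20 (adjusted p = 0.65) became 0.59 without it (adjusted p = 2.8e-04).

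The pyruvate dehydrogenase kinases changed in opposite directions. Pdk2, the widely expressed kinase (chr11:95026258-95041354), had 232.7, 209.5 and 213.9 normalized counts in PBS and 54.9, 74.6 and 90.9 in the libraries labelled pIpC. Every library labelled pIpC lay well below every PBS library, and the log2 fold change was -1.59 (SE 0.23, adjusted p = 0.0022), the largest fall among the members. Pdk3 (chrX:93764607-93832201) had 526.0, 557.7 and 894.0 normalized counts in PBS and 1270.5, 1295.5 and 1287.1 in the libraries labelled pIpC. PBS_3 was the highest PBS library but below all of these, and the log2 fold change was 1.00 (SE 0.21, adjusted p = 0.011). Pdk1, a kinase known to be induced in hypoxia, had a log2 fold change of 0.22 (adjusted p = 0.26) and 0.11 without PBS_3 (adjusted p = 0.25).

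The first enzyme of the pentose phosphate pathway rose, and so did all but Taldo1 of the non-oxidative branch. G6pdx (glucose-6-phosphate dehydrogenase, the rate-limiting NADPH-producing step; chrX:74409483-74429194) had 4059.6, 4559.9 and 4430.5 normalized counts in PBS and 11839, 12990 and 11574 in the libraries labelled pIpC. The groups were wide apart, and PBS_3 sat among the other PBS libraries. The means differed 2.79-fold, with a log2 fold change of 1.48 (SE 0.12, adjusted p = 1.7e-04). Ikbkg, on the opposite strand, shares 13.6% of the exon bases of G6pdx and had mean counts of 1101 in PBS and 1226 in the libraries labelled pIpC. Pgd, the other NADPH-producing dehydrogenase, had 16116, 17843 and 18219 normalized counts in PBS against 19470, 19847 and 19768. The groups did not overlap, but the log2 fold change of 0.18 did not pass (adjusted p = 0.32), and without PBS_3 it was 0.22 (adjusted p = 0.028). Pgls, the lactonase between them, had 1313.4, 1336.1 and 3472.0 against 1747.6, 1847.2 and 1939.8. PBS_3 was the highest of all libraries for Pgls, and the log2 fold change of 0.01 (adjusted p = 0.98) became 0.48 without it (adjusted p = 4.5e-04).

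In the non-oxidative branch, Tkt (transketolase, which moves carbon units between sugars) had 14818, 15663 and 22487 normalized counts in PBS and 30582, 30822 and 32381 in the libraries labelled pIpC. The groups did not overlap, and PBS_3 was the highest PBS library. The log2 fold change was 0.85 (SE 0.20, adjusted p = 0.015). Rpe, the epimerase that makes xylulose-5-phosphate, had 1267.5, 1393.8 and 1468.9 against 2532.1, 2529.7 and 2392.4, with a log2 fold change of 0.85 (SE 0.11, adjusted p = 0.0014). Each library labelled pIpC was well above each PBS library for Rpe, whose exons overlap the opposite-strand gene Kansl1l over 17.9% of their length. Rpia, the isomerase that makes ribose-5-phosphate for nucleotides, had 2076.5, 2292.6 and 3456.1 against 4513.2, 3812.9 and 4227.7. PBS_3 came near pIpC_2 without passing it, and the log2 fold change of 0.71 (SE 0.21, adjusted p = 0.036) lost its call without PBS_2 (adjusted p = 0.10), pIpC_1 (0.12) or pIpC_3 (0.12). Taldo1, transaldolase, had 11358, 12619 and 25304 normalized counts in PBS and 12964, 12092 and 12850 in the libraries labelled pIpC. Apart from PBS_3 these were close, and the log2 fold change was -0.28 (adjusted p = 0.50), or 0.08 without PBS_3 (adjusted p = 0.39). The non-oxidative members together took 0.152, 0.164 and 0.219% of all normalized counts in PBS and 0.218, 0.216 and 0.227% in the libraries labelled pIpC, so that PBS_3 lay within the range of the latter. The oxidative members took 0.111, 0.122 and 0.109% against 0.142, 0.152 and 0.146%, with no overlap.

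**Figure D3:**
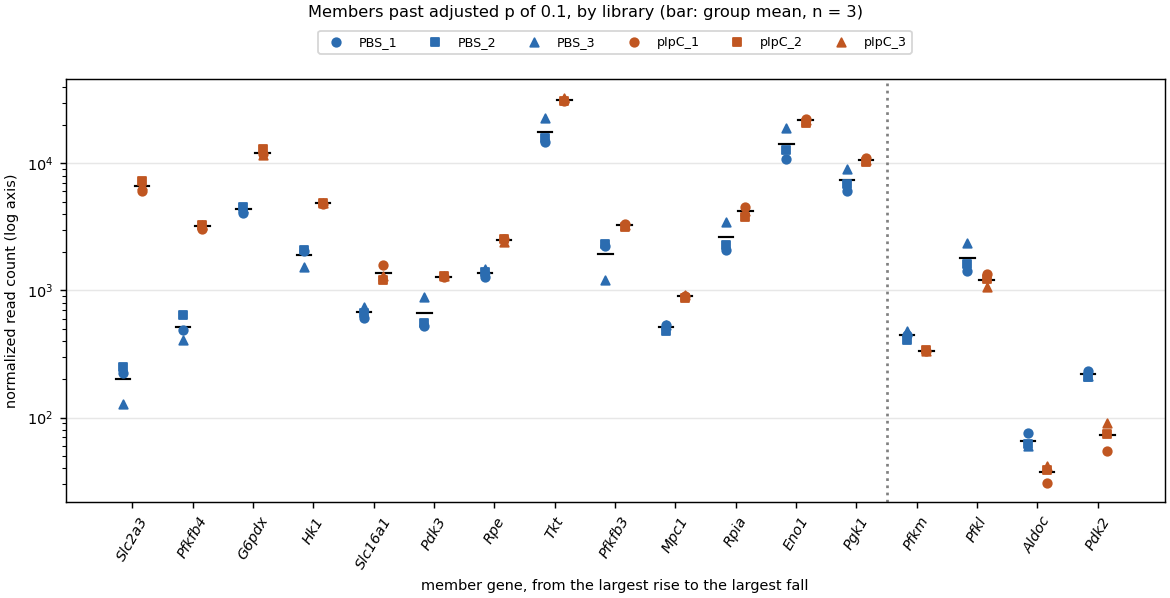
Normalized read counts (log axis) of the 17 members past an adjusted p of 0.1 in each of the 6 libraries; symbols give the replicate number, bars the mean of 3 libraries, and the dotted line divides the 13 genes that rose from the 4 that fell. The separation is widest for Slc2a3 (129.0 to 249.0 against 6061.2 to 7218.2), and PBS_3 (triangle) is the highest or lowest PBS point for most genes.

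Of the 4 members on the X chromosome, Pgk1, Pdk3 and G6pdx rose and Pfkfb1 did not pass, where 25.0% of all genes tested rose. The share among all X-linked genes was not counted, and the Pgk1 call was lost when any library but PBS_3 was left out. Xist, the RNA of the inactive X chromosome, looked at after its values were seen, had 51.0, 72.9 and 15.8 normalized counts in PBS and 18429, 26172 and 19942 in the libraries labelled pIpC, while the Y-linked Ddx3y, Uty, Kdm5d and Eif2s3y had at most 2.3 in any library. The part of this in the X-linked members was not tested.

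As levels per kb of exon, which allow genes to be compared, the order of the members was much alike in both groups (Spearman rho = 0.89 across the 40 members, which share libraries and annotation). Gapdh was the most abundant, at 13283 ± 3157 normalized counts per kb in PBS and 10828 ± 268 in the libraries labelled pIpC (SD, n = 3). Taldo1 and Pgam1 followed in PBS at 7567 ± 3553 and 7294 ± 1472, a difference within their spread, and Pkm and Taldo1 followed in the libraries labelled pIpC at 6685 ± 166 and 5820 ± 218. With the longest transcript as the length, Pkm stood slightly above Gapdh in the libraries labelled pIpC (13747 and 13606 per kb), and Taldo1 and Pkm followed Gapdh in PBS (12061 and 10697). Per kb of exon, in both groups, 13 members exceeded 2000 per kb, among them Hk3, Gpi1, Pgd and Tkt. On that scale both groups stayed below 100 per kb for 5 members, which were Slc2a1, Aldoc, Pdk2, Pfkfb1 and Pfkfb2. Slc2a3 went from 27.8 ± 8.79 per kb, the second lowest level of any member, to 920 ± 80.1, and G6pdx from 1412 ± 84.3 to 3940 ± 244.

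The proportions of isoenzymes were compared inside each library, where the scaling of libraries cancels. A trend with transcript length, as seen in PBS_3, does not cancel between isoenzymes of unlike length. Shares per kb of exon were described in 10 families, and log2 ratios were tested in 17 pairs by a 2-sided exact permutation test, which cannot fall below p = 0.10 with 3 libraries against 3. In 10 of the 17 pairs the groups did not overlap, each with an exact permutation p = 0.10 (0.17 after Benjamini-Hochberg adjustment over the pairs), so no pair could pass. Taken as single genes, 56.8% of all genes tested did not overlap either. Several pairs share a gene, so the count of pairs is only a description. The glucose transporters changed place, with Slc2a3 making 28.9, 27.3 and 14.1% of the pair per kb in PBS and 89.0, 90.9 and 91.7% in the libraries labelled pIpC. Slc2a3 was thus the minor transporter in every PBS library and the major one in every library labelled pIpC. Among PFKFB enzymes, Pfkfb4 went from 25.2 ± 4.08% to 57.2 ± 1.31% (SD, n = 3), and Pfkfb3 from 59.0 ± 3.27% to 37.5 ± 1.73% although its own level rose. The leading PFKFB enzyme per kb was Pfkfb3 in each PBS library and Pfkfb4 in each of the others.

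Among the pyruvate dehydrogenase kinases, Pdk2 made 17.8, 16.1 and 13.0% in PBS and 2.62, 3.54 and 4.29% in the libraries labelled pIpC, and Pdk3 rose from 56.5 ± 9.22% to 75.3 ± 0.629%. Pdk3 was the leading kinase per kb in both groups. Hk3 stayed the leading hexokinase, at 86.0 ± 2.53% and 80.1 ± 0.940%, and Hk1 went from 4.85 ± 0.629% to 10.2 ± 0.192%. The log2 ratio of Hk2 to Hk1 turned from 0.38, 0.53 and 0.24 in PBS to -0.50, -0.65 and -0.63. In counts, Hk2 therefore stood above Hk1 in every PBS library and below it in every library labelled pIpC. That order depends on length, which counts ignore. Per kb of exon, Hk2 made 10.6% and Hk1 10.4% in pIpC_1. With the longest transcript as the length, Hk2 made 6.44% and Hk1 7.01% in PBS_3.

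The phosphofructokinase shares moved from Pfkl (50.8 ± 7.09% to 42.7 ± 1.92%) to Pfkp (23.6 ± 5.36% to 33.5 ± 0.992%), and the gap between PBS_1 and pIpC_1 was small for Pfkl, at 44.9 and 44.0%. PBS_3 had the highest Pfkl share (58.7%) and the lowest Pfkp share (17.4%) of all libraries. Their longest transcripts have 3730 and 8681 bases, and the part of length in this move was not tested. Slc16a1 gained on Slc16a3, from 28.8 ± 0.773% to 41.5 ± 7.06%, with the highest share in pIpC_1. Eno3 fell from 5.36 ± 1.36% of the enolases to 2.27 ± 0.180%. Mpc1 made 65.4, 62.2 and 45.4% of the pyruvate carrier subunits in PBS and 67.6, 68.8 and 66.6% in the libraries labelled pIpC, where the distance rests largely on PBS_3. The lactate dehydrogenases overlapped, with Ldhb at 10.4 ± 2.64% and 11.0 ± 1.35%.

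**Figure D4:**
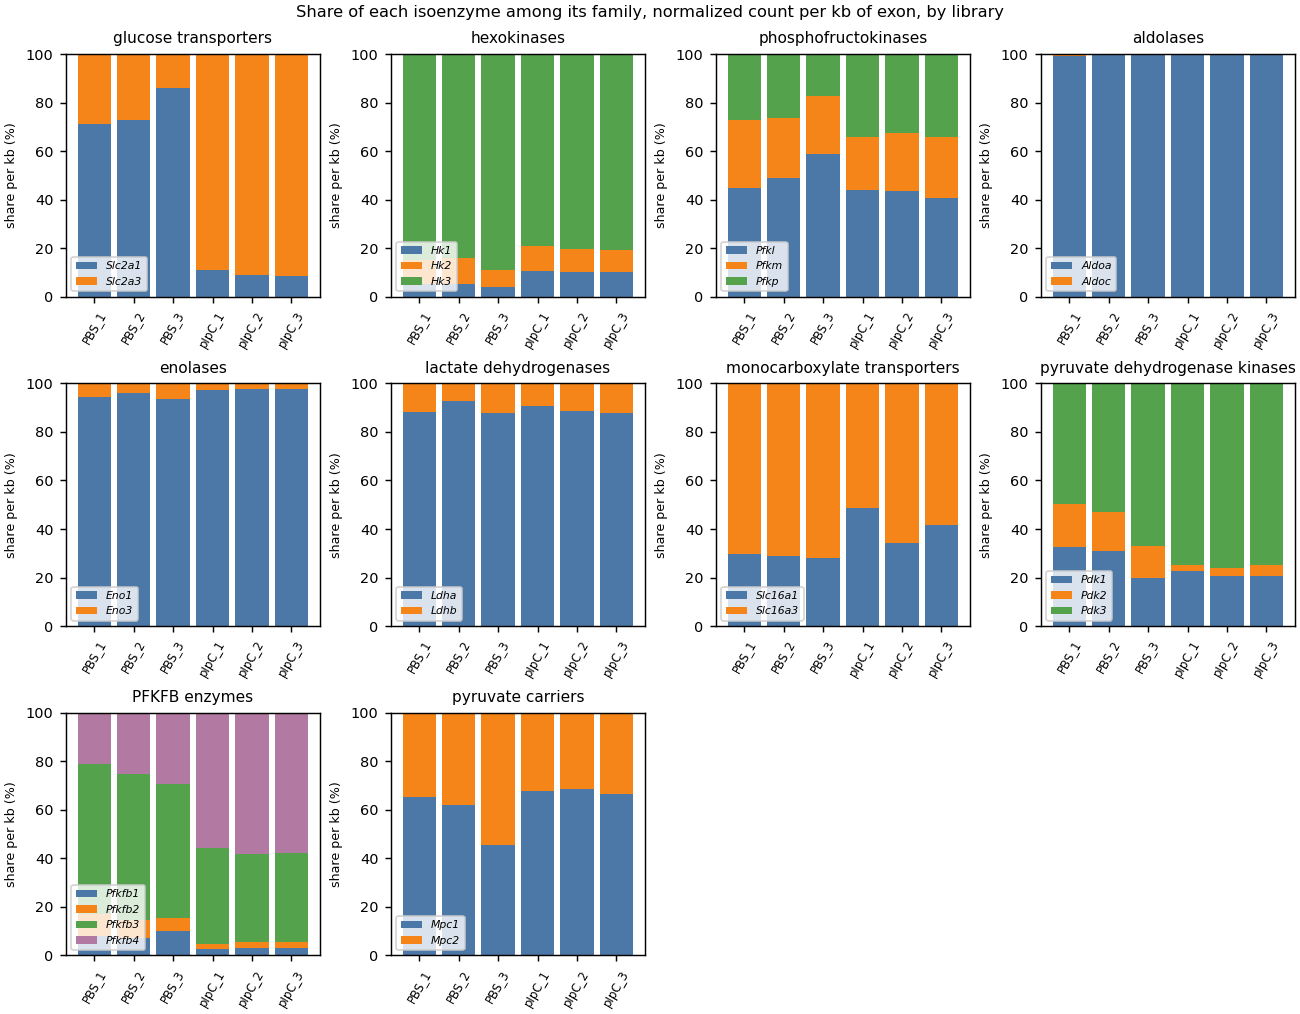
Share of each isoenzyme (percent of the family's normalized count per kb of exon) in each of the 6 libraries, for 10 families; each stacked bar is a library and sums to 100%. Slc2a3 and Pfkfb4 take the larger part only in the libraries labelled pIpC, and Pdk2 shrinks to 4.29% or less of the kinases there.

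Among other enzymes of carbohydrate metabolism, 7 of 24 tested rose and 6 fell, shares near the 25.0% and 20.4% of all genes tested, with a median log2 fold change of 0.07. The 6 that fell became 10 without PBS_3, where 30.6% of all genes tested fell. They became 2 without PBS_2 (2644 of 15020 genes tested fell) or pIpC_3 (12.7%), and 3 without pIpC_2 (12.4%). Pklr, the pyruvate kinase of liver and red cells, ranked highest in that list and was at 0 in all PBS libraries, against 246.5, 156.3 and 339.4 normalized counts in the libraries labelled pIpC. The summed erythroid markers moved the same way, and their part was not tested. Slc2a8, an intracellular glucose transporter, had the lowest of those called, at 190.3, 208.5 and 227.5 normalized counts against 57.9, 57.2 and 89.0 (log2 fold change -1.63, adjusted p = 0.0022). Adpgk, a glucokinase that uses ADP and was singled out after its values were seen, had 3950.6, 4929.4 and 3182.2 normalized counts in PBS and 31479, 36396 and 35771 in the libraries labelled pIpC, with no overlap (log2 fold change 3.12, adjusted p = 5.4e-05).

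None of the 8 tested genes of the pyruvate dehydrogenase complex and its partners passed in limma, where 45.3% of all genes tested did. Of these 8, 0 had an unadjusted p under 0.05, and their median log2 fold change was 0.00. Without PBS_3, 1 of them was called higher and 2 lower, beside 34.5% and 30.6% of all genes tested. Without PBS_2, 1 was called higher, beside 3432 of 15020 genes tested. Of 15 regulators of glycolytic genes tested, 7 rose and 1 fell, beside 25.0% and 20.4% of all genes tested, with a median of 0.38. Nfe2l2 (NRF2, an activator of antioxidant and pentose phosphate genes) had the highest fold change of those called, from 957 ± 110 to 3123 ± 41.9 normalized counts (log2 fold change 1.71, adjusted p = 1.1e-04). Myc, an activator of many glycolytic genes, was the one that fell, at 2666.6, 2582.1 and 4145.3 in PBS and 1834.4, 1726.6 and 1670.0 in the libraries labelled pIpC (log2 fold change -0.81, adjusted p = 0.019). Hif1a, the oxygen-sensitive activator of glycolysis, overlapped between groups (log2 fold change 0.02, 95% interval -0.29 to 0.32, adjusted p = 0.93). Of 13 hypoxia response genes outside glycolysis, 3 rose and 3 fell, near those same background shares, with a median of -0.30. The 3 that fell became 5 without PBS_1 (19.9% of all genes tested fell) or PBS_3 (30.6%), and 1 without pIpC_1 (14.0%). Among those called, the oxidase Ero1l had the highest (log2 fold change 1.34, adjusted p = 0.0012) and Car9, a carbonic anhydrase, the lowest (log2 fold change -0.75, adjusted p = 0.0086).

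The 250 bases before the annotated start were searched on both strands in the RefSeq promoter table (GRCm38.p6), which held 39 of the 40 members in 60 windows of 32851. The core of the hypoxia response element, ACGTG, was in 31.7% of the members' windows and 16.6% of all windows. The E-box CACGTG, which contains that core, was in 10.0% and 6.02%, and the GC box GGGCGG in 56.7% and 32.7%. A gene can have several windows, and the windows were not matched for base composition. The stretches before the start of Slc16a1, Pfkfb4 and Pdk2, a transporter and a control enzyme that rose and a kinase that fell, are shown 5′ to 3′ on the strand of the gene, with CACGTG or GGGCGG in capitals. Only the part of a window that no annotated exon covers is printed, which for Pfkfb4 is 126 bases. They lie at chr3:104638414-104638663 on the plus strand, chr9:108991652-108991777 on the plus strand and chr11:95041372-95041621 on the minus strand.
Slc16a1: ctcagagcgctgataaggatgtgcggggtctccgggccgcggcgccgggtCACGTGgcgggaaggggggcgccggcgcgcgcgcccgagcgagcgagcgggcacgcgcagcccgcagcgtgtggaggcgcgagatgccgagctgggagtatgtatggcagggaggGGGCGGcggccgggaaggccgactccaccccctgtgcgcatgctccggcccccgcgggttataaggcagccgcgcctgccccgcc
Pfkfb4: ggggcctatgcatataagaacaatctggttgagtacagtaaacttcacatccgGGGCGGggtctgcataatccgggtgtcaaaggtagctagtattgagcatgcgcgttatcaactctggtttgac
Pdk2: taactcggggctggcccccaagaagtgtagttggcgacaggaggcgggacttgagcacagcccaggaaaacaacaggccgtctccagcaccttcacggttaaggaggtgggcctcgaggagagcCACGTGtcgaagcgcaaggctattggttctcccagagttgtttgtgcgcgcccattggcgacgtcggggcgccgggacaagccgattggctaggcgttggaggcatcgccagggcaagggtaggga
The E-box letters stood in the window of Slc16a1 and in the printed window of Pdk2, while a window at another annotated start of Pdk2 and the full window of Pfkfb4 did not hold them. A match is a description of letters and says nothing about binding.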

How the data were processed

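RNA-seq was done on poly(A)-selected RNA of 6 marrow samples, 3 per group. The deposited table gives normalized counts (a signal: gene read counts that the authors divided by a size factor per library). The study's methods name nf-core/rnaseq with STAR and RSEM on mm10, the submitters' processing notes HISAT2 2.2.1 and featureCounts on GRCm38; the labels call the libraries unstranded and the study's methods stranded, so whether reads of overlapping opposite-strand genes could be told apart is not known here. Every value was a whole multiple, within 0.05, of the smallest value of its column, which gave the reads per library. Genes were named from GENCODE M21 (55227 of 55487 matched). Other genes on the same strand share 20.6% of the exon bases of Pgls, 17.4% of Pfkfb2, 15.3% of Pkm and 10.2% of Pfkm. The part of these overlaps in the counts was not tested. The main test was limma 3.58.1 (R 4.3.3) on log2(normalized count + 1), its prior variance following intensity. It covered genes averaging 10 or more in all 6 libraries, with adjusted p under 0.1, tested on simulated data. In the simulation few genes changed and both groups had the same spread, unlike here. It therefore does not show how the test performs on these data. Fold changes of log2(normalized count + 1) understate those of low genes. Isoenzyme shares used the union of exons. Same-numbered libraries did not deviate together (correlations -0.12, 0.14 and 0.04). Named genes were all members, Brd9, Hif1a and Myc, the highest and lowest called gene of each other list, and annotated copies. Members and lists were chosen with earlier results of these data known.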

Additional observations from a re-analysis of the deposited data

How the results depend on the processing

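Each member was refitted under 16 alternatives: pseudocounts of 0.1 and 10, no filter, a filter at a mean of 50, quantile normalization, centring on the median, the replicate block, no intensity trend, an adjusted p of 0.05, leaving out each library, and removal of the length trend (a lowess of span 0.3, chosen after seeing the data). Of 17 called members, 10 kept their direction and their side of the threshold under all of them (Slc2a3, Hk1, Slc16a1, Pdk2, Pdk3, Pfkfb4, Mpc1, G6pdx, Tkt and Rpe), and the other 7 (Pfkl, Pfkm, Aldoc, Pgk1, Eno1, Pfkfb3 and Rpia) lost the call under at least 1. The same-numbered libraries share only a number: the replicate block gave 13 members higher and 1 lower, beside 3395 and 2700 of 15020 genes tested. An adjusted p of 0.05 left 12 members higher and 2 lower, and the share of all genes at that cut was not counted. Leaving out 1 library gave 9 to 25 members higher and 1 to 6 lower, the largest counts without PBS_3. Over all genes tested, these fits called 2790 to 5186 higher and 1860 to 4597 lower, again the most without PBS_3. Quantile normalization gave 16 higher and 5 lower members, and over all genes it moved the median log2 fold change to -0.12. The calls over all genes went to 3244 higher and 4078 lower, from 3750 and 3058 (44.3% against 55.1% higher). Removal of the length trend gave 17 higher and 4 lower members, beside 4309 and 3632 of 15005 genes tested. The edgeR, DESeq2 and TMM fits that had been planned were not run. In pIpC_1, 1 read is worth 0.9981 normalized counts, and the check of units used here takes a step so near 1 as possible rounding. The values of pIpC_1 were nevertheless whole multiples of that step, within 0.05.

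None of the members that changed sign under a setting was called in the full comparison. With the length trend removed, Pfkp was at -0.16, Tpi1 at 0.23 and Pdk1 at -0.012. Median-centred values put Tpi1 at 0.024, and quantile normalization put Pfkfb1 at -0.058 and Pgls at -0.10. Leaving out 1 library moved the log2 fold change across 0 for Slc2a1 (-0.067 to 0.19), Aldoa (-0.13 to 0.35), Tpi1 (-0.18 to 0.24), Pfkfb1 (-0.12 to 0.078), Pfkfb2 (-0.69 to 0.078), Fbp1 (-0.066 to 0.31), Mpc2 (-0.0058 to 0.59), Pgls (-0.22 to 0.48) and Taldo1 (-0.50 to 0.077). It also did so for the log2 ratios Pfkm/Pfkl (-0.021 to 0.29), Ldhb/Ldha (-0.15 to 0.25) and Pfkfb2/Pfkfb1 (-0.57 to 0.00010), none of which could pass.

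The change in isoenzyme share, in percentage points, depended on the length used. Without division by length it was 57.0 for Slc2a3 (67.1 per kb), 9.81 for Hk1, -0.0361 for Hk2, -9.77 for Hk3, -1.05 for Eno3, -8.99 for Pdk2, -3.10 for Pfkfb1 and 28.4 for Pfkfb4. With the longest transcript it was 8.45 for Hk1, -8.64 for Hk3 and -1.36 for Eno3. Leaving out 1 library gave -0.52 to 1.32 for Hk2 and -0.97 to 1.44 for Ldhb. In the other lists it gave 6 to 10 other carbohydrate enzymes higher and 2 to 10 lower. It gave 0 to 1 genes of the pyruvate dehydrogenase complex higher and 0 to 2 lower, and 5 to 10 regulators higher. For hypoxia response genes it gave 2 to 3 higher and 1 to 5 lower. Over all genes tested, those fits called 2790 to 5186 higher and 1860 to 4597 lower. The cause of these shifts was not tested.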
